A study of Mus musculus with 24 samples.

Results

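The genes described are the nuclear genes for the subunits of respiratory complexes II, III and IV and of ATP synthase (complex V), together with Cycs, which encodes cytochrome c. They were chosen by name from a fixed list, with earlier results of these data known. Of the names, 30 matched a gene symbol of the deposited table. A further 5 genes were found under an older symbol of the same gene (Atp5h for Atp5pd, Atp5g1, Atp5g2 and Atp5g3 for Atp5mc1, Atp5mc2 and Atp5mc3, and Atp5l for Atp5mg), which gave 35 of the 19175 genes measured. There were 4 subunits of complex II, 9 of complex III, Cycs, 10 of complex IV and 11 of ATP synthase, and all 35 passed the filter on low counts. RNA-Seq had been carried out on subcutaneous white adipose tissue (sWAT) of mice aged 20 weeks and fed ad libitum, in 6 female Gdf15-KO, 6 female WT, 6 male Gdf15-KO and 6 male WT mice. The Gdf15-KO mice lack the stress-induced hormone GDF15 in the whole body and not only in fat, and were compared with WT littermates on the same mixed C57BL/6/129/SvJ background. Gdf15 itself had 0.0 to 0.0435 CPM in female Gdf15-KO mice, against 0.312 to 0.723 CPM in female WT mice. It had 0.0 to 0.0817 CPM in male Gdf15-KO mice, against 0.599 to 1.36 CPM in male WT mice. CPM is the count of a gene relative to the size of its library after TMM scaling, and the libraries held 22521358 to 24500575 counts each. All 12 adipocyte markers were detected in all 24 mice, with summed levels of 17736 to 40485 CPM.

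The respiratory chain lies in the inner mitochondrial membrane. Complex II (succinate dehydrogenase) passes electrons from succinate to ubiquinone, complex III hands them on to cytochrome c, and complex IV (cytochrome c oxidase) gives them to oxygen. Complexes III and IV pump protons as they do so, and ATP synthase uses the returning protons to make ATP. Complex II is encoded wholly in the nucleus, whereas the core of complexes III, IV and V is partly encoded by mitochondrial DNA, which was not analysed here. White adipocytes hold few mitochondria compared with brown and beige adipocytes, in which the chain serves heat production.

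Nuclear genes of the chain are known to be controlled in common by NRF1, by the ETS-family factor NRF2 (GABP), by CREB and by estrogen-related receptors, so the promoters of the members with the most marked differences are shown. Of the 35 genes, 27 had a RefSeq promoter window (build GRCm38.p6, 250 bases before to 50 bases after the start site). Each sequence below runs 5′ to 3′ over the 200 bases before the start site on the minus strand, with the motif matches in capitals. Cycs (chr6:50566570-50566769) had the largest Gdf15-KO difference, Atp5g2 (chr15:102671048-102671247) the smallest p in females, and Cox6a1 (chr5:115348959-115349158) the largest difference between the sexes.
Cycs: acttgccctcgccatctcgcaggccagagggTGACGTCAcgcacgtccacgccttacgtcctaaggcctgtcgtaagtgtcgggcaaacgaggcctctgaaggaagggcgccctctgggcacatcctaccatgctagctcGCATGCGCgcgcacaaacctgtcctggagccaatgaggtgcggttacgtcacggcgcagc
Atp5g2: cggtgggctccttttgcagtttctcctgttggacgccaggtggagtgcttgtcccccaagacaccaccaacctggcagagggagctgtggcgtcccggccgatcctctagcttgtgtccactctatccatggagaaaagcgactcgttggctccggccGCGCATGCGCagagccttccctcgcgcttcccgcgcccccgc
Cox6a1: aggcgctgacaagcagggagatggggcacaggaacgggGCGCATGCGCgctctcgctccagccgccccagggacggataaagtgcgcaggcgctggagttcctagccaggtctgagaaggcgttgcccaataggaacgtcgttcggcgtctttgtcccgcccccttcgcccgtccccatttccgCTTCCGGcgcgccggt
The capitals mark a CREB motif (TGACGTCA) at -169 to -162 and an NRF1 motif (GCGCATGC, read on the opposite strand) at -60 to -53 in Cycs. In Atp5g2 they mark 2 overlapping copies of the NRF1 motif, 1 on each strand, at -42 to -33. In Cox6a1 they mark the same overlapping pair at -162 to -153 and an ETS core (CCGGAAG, on the opposite strand) at -16 to -10. Both strands of the whole windows were searched, different motifs did not overlap in the 3 sequences shown, and the letters searched were settled after the windows had been read, a shorter NRF1 motif replacing a longer one that matched fewer windows. The NRF1 motif was in 7 of the 27 windows (25.9%), against 3.05% of 27025 genes. The ETS core was in 9 of them (33.3%), against 9.93% of genes, and the CREB motif was in those of Cycs and Uqcrfs1 (7.41%), against 2.03%. The core of the estrogen-related receptor motif (AAGGTCA) was in 3 (11.1%), against 5.38%, and a TATA box (TATAAA) was in 1 (3.7%), against 15.7%. The 27025 genes are all those with a window and were not limited to the 14982 genes tested in sWAT. These matches are letters in a window and were not tested for use in sWAT.

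The question addressed by the Gdf15-KO comparison was how loss of GDF15 altered the expression of metabolic genes in sWAT of each sex. In females the log2 difference, Gdf15-KO minus WT, was below 0 for 35 of the 35 genes, against 51.4% of all 14982 genes tested. The median was -0.30, a fold of 0.812, against -0.005 over all genes, and the values ran from -0.56 (Cycs) to -0.18 (Atp5g1, 1 of 3 genes for the c-ring of ATP synthase). By edgeR's quasi-likelihood test 0 of the 35 genes were called at an adjusted p under 0.05, against 0.174% of all genes called lower, and the lowest adjusted p was 0.192 (Atp5g2). At an unadjusted p under 0.05, 28 were lower, against 7.36% of all genes. DESeq2 called 1 (Atp5g2) in a fit of all mice, against 0.448% of all genes, and 8 in the females alone (Uqcrb, Cycs, Cox5a, Cox7a2, Cox7b, Atp5o, Atp5pb and Atp5l), against 1.01%. limma-voom called 0. The 35 genes were high or low in the same mice, so their counts are not 35 separate observations.

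In males the difference was below 0 for 33 of the 35 genes, against 49.6% of all genes, with Atp5g1 at 0.02 and Cox8a at 0.01. The median was -0.13, a fold of 0.916, and the lowest value was again that of Cycs, -0.44. No gene was called by edgeR, DESeq2 or limma-voom (0 of 35, with 0.174% of all genes called lower by edgeR), and the lowest adjusted p by edgeR was 0.759. At an unadjusted p under 0.05, 3 were lower (Cycs, Uqcrb and Cox6c), against 3.09% of all genes. This count rested on single mice. It was 14 without male WT mouse 4, against 5.41% of all genes instead of 3.09%. It was 1 without male Gdf15-KO mouse 18 (2.11% of all genes), male WT mouse 1 (1.89%) or male WT mouse 5 (2.87%).

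**Figure D1:**
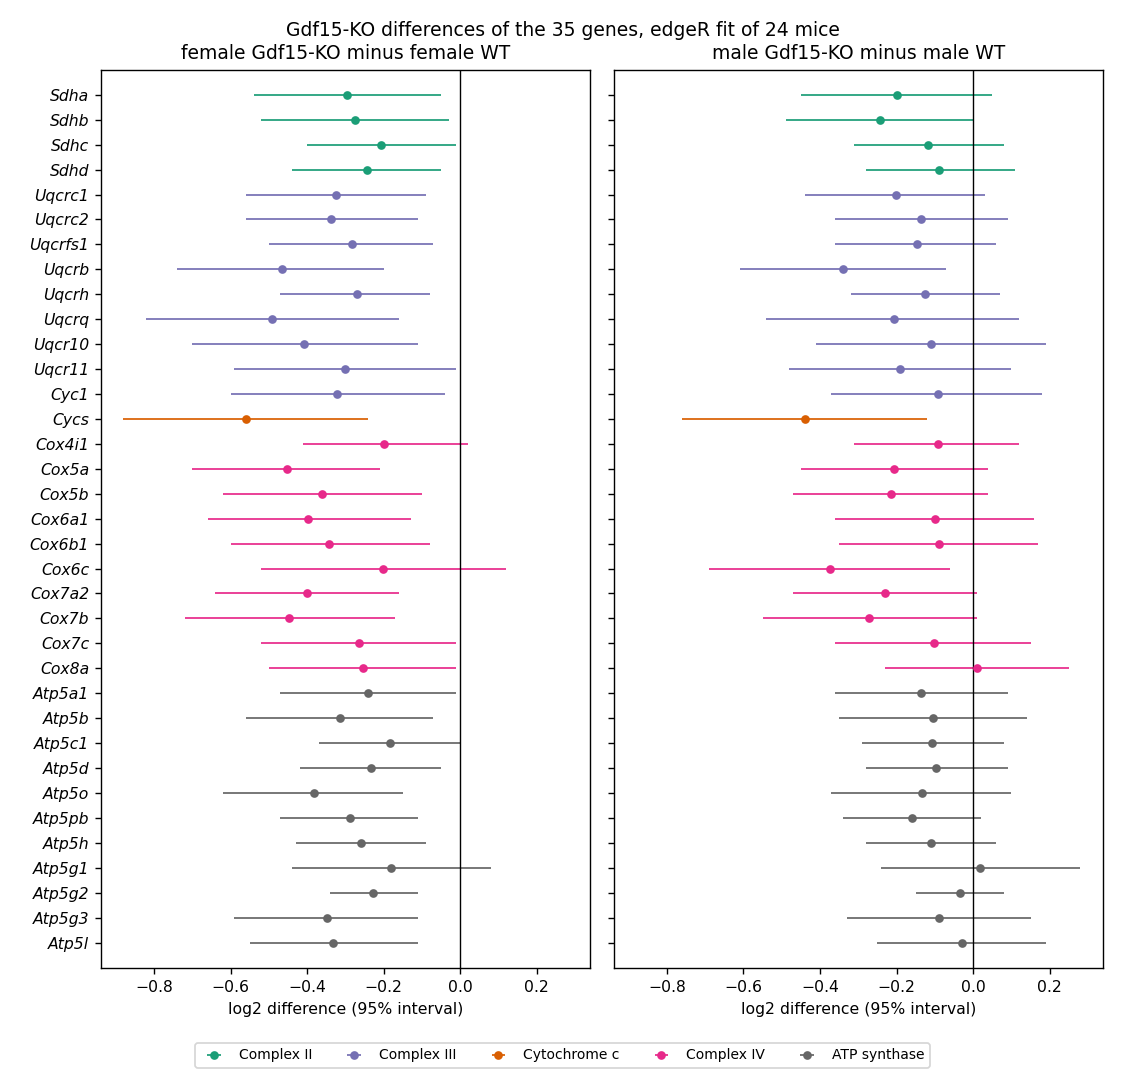
Log2 difference in expression, Gdf15-KO minus WT, of the 35 genes by complex in female mice (left) and male mice (right). The intervals are nominal 95% intervals, from the SE of the edgeR fit of all 24 mice and a normal approximation. They are narrower than the edgeR test implies. All 35 points lie below 0 in females and 33 of 35 in males, and Cycs is the lowest in both.

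In complex II, the 4 subunits were close to each other in females. Their median was -0.26, with values between -0.30 (Sdha) and -0.21 (Sdhc). All 4 were lower at an unadjusted p under 0.05, against 7.36% of all genes. Sdha, the flavoprotein subunit that oxidizes succinate, had a lowest, median and highest level of 472, 537 and 644 CPM in female Gdf15-KO mice, against 487, 649 and 817 CPM in female WT mice. The groups overlapped, although all 6 Gdf15-KO mice lay below the WT median (log2 difference -0.30, SE 0.13, adjusted p = 0.402 by edgeR). Sdhb, the iron-sulfur subunit, had 104, 113 and 130.0 CPM in female Gdf15-KO mice, against 102, 134 and 178 CPM in female WT mice, and the WT range enclosed that of the Gdf15-KO mice. In males Sdhb had 119, 132 and 161 CPM in Gdf15-KO mice, against 113, 169 and 193 CPM in WT mice, with a difference of -0.24 (SE 0.12, adjusted p = 0.926), the lowest of the complex in that sex. Sdhc and Sdhd, which anchor the enzyme in the membrane, differed by -0.21 and -0.24 in females and by -0.12 and -0.09 in males.

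In complex III, the 9 subunits had a median of -0.32 in females, with values from -0.49 (Uqcrq) to -0.27 (Uqcrh). At an unadjusted p under 0.05, 8 of 9 were lower, against 7.36% of all genes. Uqcrb, a small subunit beside the ubiquinone site, had 49.7, 57.4 and 63.2 CPM (lowest, median, highest) in female Gdf15-KO mice, against 68.1, 73.4 and 96.2 CPM in female WT mice. These ranges did not overlap, which was so for 2 of the 35 genes in females (the other was Cox5a), against 0.601% of all genes lower without overlap, and for 0 in males, against 0.347%. The log2 difference of Uqcrb was -0.47 (SE 0.14, adjusted p = 0.257). In males Uqcrb had 48.3, 64.2 and 70.2 CPM in Gdf15-KO mice, against 46.3, 81.0 and 97.5 CPM in WT mice, and 6 of 6 Gdf15-KO mice lay below the WT median, while 1 WT mouse was lower than all of them (difference -0.34, SE 0.14, adjusted p = 0.779). Uqcrc1 and Uqcrc2, the core proteins, differed by -0.32 (SE 0.12, adjusted p = 0.343) and -0.34 (SE 0.12, adjusted p = 0.32) in females and by -0.20 and -0.14 in males. Cyc1, the cytochrome c1 subunit that reduces cytochrome c, had 105, 137 and 176 CPM in female Gdf15-KO mice, against 133, 164 and 234 CPM in female WT mice. Its difference was -0.32 (SE 0.14, adjusted p = 0.418) in females and -0.09 in males, the male value being the closest to 0 of the complex. The Rieske iron-sulfur subunit Uqcrfs1, the hinge subunit Uqcrh and the small subunits Uqcrq, Uqcr10 and Uqcr11 differed by -0.49 to -0.27 in females and by -0.21 to -0.11 in males.

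Cycs, the mobile electron carrier between complexes III and IV that also takes part in apoptosis, stood lowest of the 35 genes in both sexes. It had 70.4, 91.6 and 127 CPM (lowest, median, highest) in female Gdf15-KO mice, against 114, 129 and 181 CPM in female WT mice. In males it had 80.4, 114 and 139 CPM in Gdf15-KO mice, against 101, 165 and 182 CPM in WT mice. In each sex the ranges overlapped, and all 6 Gdf15-KO mice lay below the WT median. The log2 difference was -0.56 in females (SE 0.16, nominal 95% interval -0.88 to -0.24, adjusted p = 0.251). In males it was -0.44 (SE 0.16, -0.76 to -0.12, adjusted p = 0.759). Cycs held 1.22 to 1.67% (median 1.44%) of the summed CPM of the 35 genes in female Gdf15-KO mice, against 1.62 to 1.88% (median 1.71%) in female WT mice. In males the share was 1.21 to 1.65% (median 1.46%) in Gdf15-KO mice, against 1.57 to 1.94% (median 1.83%) in WT mice. The median share was thus lower in Gdf15-KO mice of both sexes, while the ranges of the genotypes met.

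In complex IV, the 10 subunits surround a core made in the mitochondrion. They had a median of -0.35 in females, with values from -0.45 (Cox5a) to -0.20 (Cox4i1). At an unadjusted p under 0.05, 6 of 10 were lower, against 7.36% of all genes. Cox5a, an early-assembled subunit, had 58.1, 73.6 and 86.7 CPM in female Gdf15-KO mice, against 89.4, 93.0 and 132 CPM in female WT mice, and these ranges did not overlap (difference -0.45, SE 0.13, adjusted p = 0.234). In males its ranges overlapped, with 76.1, 99.0 and 110.0 CPM in Gdf15-KO mice, against 81.2, 116 and 134 CPM in WT mice (difference -0.21, SE 0.13, adjusted p = 0.942). Cox7b and Cox7a2, small subunits of the enzyme, differed by -0.45 (SE 0.14, adjusted p = 0.28) and -0.40 (SE 0.12, adjusted p = 0.265) in females. In males the same genes differed by -0.27 and -0.23. Cox6a1, the form of subunit 6a made outside muscle and heart, had 131, 157 and 196 CPM in female Gdf15-KO mice, against 163, 208 and 267 CPM in female WT mice (difference -0.40, SE 0.13, adjusted p = 0.32), and differed by -0.10 in males. Cox6c, another small subunit, was the only gene of the 35 with a larger difference in males than in females. It had 88.5, 110.0 and 129 CPM in male Gdf15-KO mice, against 80.8, 144 and 181 CPM in male WT mice (difference -0.38, SE 0.16, adjusted p = 0.84). In females it had 87.6, 97.7 and 130.0 CPM in Gdf15-KO mice, against 92.5, 116 and 168 CPM in WT mice (difference -0.20, SE 0.16, adjusted p = 0.682). The remaining genes Cox4i1, Cox5b, Cox6b1, Cox7c and Cox8a differed by -0.36 to -0.20 in females and by -0.22 to 0.01 in males. Cox4i1 is the only member on chromosome 8, where Gdf15 lies, and is 50.3 Mb away from it.

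**Figure D2:**
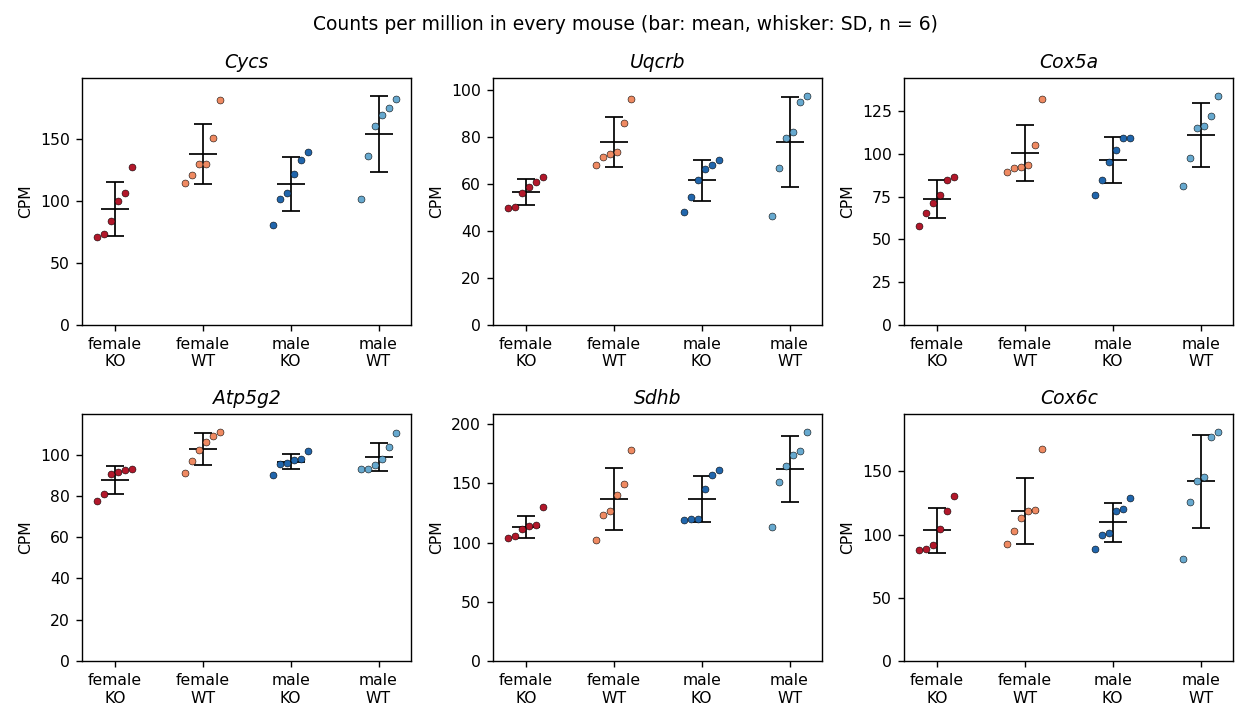
Level (CPM, linear axis starting at 0) of Cycs, Uqcrb, Cox5a, Atp5g2, Sdhb and Cox6c in each of the 24 mice, in 4 groups of 6, with the group mean and SD and the points of a group sorted by value. The female Gdf15-KO points for Uqcrb (up to 63.2 CPM) and Cox5a (up to 86.7 CPM) lie below every female WT point (from 68.1 and 89.4 CPM), while the male groups overlap in all 6 genes.

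In ATP synthase, the 11 subunits had a median of -0.26 in females, with values from -0.38 (Atp5o) to -0.18 (Atp5g1). At an unadjusted p under 0.05, 9 of 11 were lower, against 7.36% of all genes. Atp5b, the catalytic beta subunit, had 985, 1200.0 and 1430.0 CPM in female Gdf15-KO mice, against 1230.0, 1390.0 and 1760.0 CPM in female WT mice (difference -0.31, SE 0.12, adjusted p = 0.371). In males it differed by -0.11 (SE 0.12, adjusted p = 0.963). Atp5o, Atp5pb and Atp5h encode parts of the stator, which holds the catalytic head still. Atp5o differed by -0.38 (SE 0.12, adjusted p = 0.279), Atp5pb by -0.29 (SE 0.09, adjusted p = 0.311) and Atp5h by -0.26 (SE 0.09, adjusted p = 0.314) in females, and in males all 3 lay between -0.16 and -0.11. Atp5g1, Atp5g2 and Atp5g3 encode one and the same mature c-ring subunit. Atp5g2 varied little between mice, with 77.7, 91.0 and 93.0 CPM in female Gdf15-KO mice, against 90.9, 104 and 111 CPM in female WT mice, with overlapping ranges and all 6 Gdf15-KO mice below the WT median. Its difference was small, as was its error, -0.23 (SE 0.06, nominal 95% interval -0.34 to -0.11). In males Atp5g2 had 90.4, 96.7 and 102 CPM in Gdf15-KO mice, against 92.9, 96.6 and 111 CPM in WT mice. These medians were nearly equal (difference -0.04, nominal 95% interval -0.15 to 0.08). Atp5g3 and Atp5l (subunit g) differed by -0.35 and -0.33 in females and by -0.09 and -0.03 in males. The remaining genes Atp5a1, Atp5c1 and Atp5d differed by -0.24 to -0.18 in females and by -0.14 to -0.10 in males.

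Compared with each other, the complexes lay close together. The female medians were -0.26 for complex II, -0.32 for complex III, -0.35 for complex IV and -0.26 for ATP synthase, and the ranges of any pair of complexes overlapped. The male medians were -0.16, -0.15, -0.15 and -0.11 in the same order. Cycs was the lowest of the 35 genes in each sex, at -0.56 and -0.44, and Atp5g1 the highest, at -0.18 and 0.02. In shares of the summed CPM of the 35 genes, ATP synthase held a median of 50.1% in female Gdf15-KO mice, against 49.7% in female WT mice, and 50.8% in male Gdf15-KO mice, against 50.1% in male WT mice. Complex III held 14.7% in female Gdf15-KO mice, against 15.2% in female WT mice, and 14.8% in male Gdf15-KO mice, against 15.2% in male WT mice. Complex IV held 20.1% in female Gdf15-KO mice, against 20.6% in female WT mice, and 20.1% in male Gdf15-KO mice, against 19.4% in male WT mice. Complex II held 13.5% in female Gdf15-KO mice, against 13.3% in female WT mice, and 13.1% in male Gdf15-KO mice, against 13.4% in male WT mice. The differences in share of complexes II and IV thus had opposite signs in the 2 sexes, and the ranges of the genotypes overlapped for all 4 complexes. The shares rest mostly on a few abundant genes. In female Gdf15-KO mice Atp5b and Atp5a1 had means of 1190.0 and 839 CPM of 3236 CPM for ATP synthase. Sdha had 540.0 CPM of 864.6 CPM for complex II. No test was made between complexes, since subunits are not replicates of a complex.

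**Figure D3:**
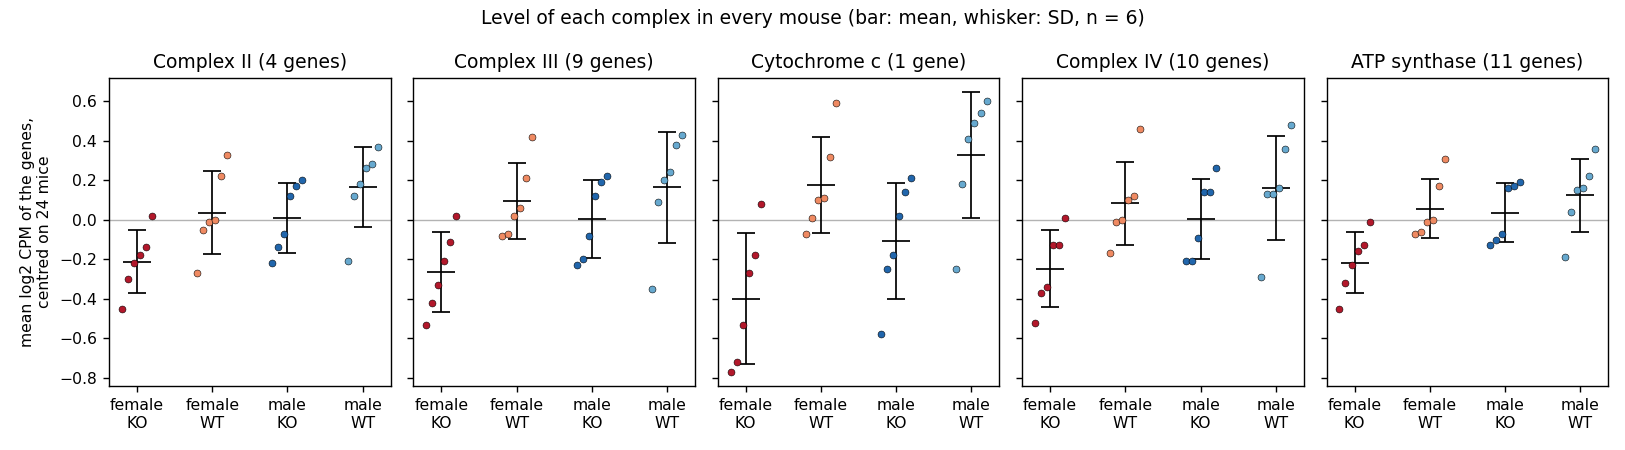
Mean log2 CPM of the genes of each complex in each mouse, centred on the mean of all 24 mice, for the 4 groups of 6 mice, with group mean and SD. In every complex and for Cycs the female Gdf15-KO mean lies below the female WT mean and the male Gdf15-KO mean below the male WT mean, with overlapping points.

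Averaged over the sexes, 35 of 35 genes were below 0, against 49.1% of all genes, with a median of -0.22 (fold 0.86). edgeR and limma-voom called 0, against 0.38% of all genes called lower by edgeR, while 31 were lower at an unadjusted p under 0.05, against 8.68%. Cycs came nearest, with -0.50 (SE 0.12, adjusted p = 0.0533), followed by Uqcrb with -0.40 (SE 0.10, adjusted p = 0.0686). DESeq2 called 6 (Uqcrb, Cycs, Cox5a, Cox7a2, Cox7b and Atp5pb), against 1.38% of all genes called lower by that tool. Without male WT mouse 4, edgeR called 10 of the 35 genes, against 1.79% of all genes called in either direction. It called 1 without female Gdf15-KO mouse 14 (0.512% of all genes in either direction), female WT mouse 4 (0.552%) or male Gdf15-KO mouse 15 (0.691%). For complex II 4 of 4, for complex III 9 of 9, for complex IV 7 of 10 and for ATP synthase 10 of 11 genes were lower at an unadjusted p under 0.05.

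The Gdf15-KO difference in females minus that in males was below 0 for 34 of the 35 genes, against 52% of all genes, with a median of -0.16. In the test of this difference 0 genes were called by edgeR, DESeq2 or limma-voom (0% of all genes by edgeR), and 1 of the 35 genes was lower at an unadjusted p under 0.05 (Atp5g2, -0.19, SE 0.08, adjusted p = 0.998 by edgeR), against 1.76% of all genes. A difference between the sexes was therefore not shown for any subunit. For Cycs the interval ran from -0.57 to 0.33, for Uqcrb from -0.51 to 0.25 and for Cox6a1 from -0.67 to 0.07, so that differences of a size near that of the effects themselves lay within it.

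Individual mice moved all complexes together. Male WT mouse 4 was the lowest of its group for 35 of the 35 genes, female WT mouse 2 was the highest of its group for 33, female Gdf15-KO mouse 18 the lowest for 27 and male Gdf15-KO mouse 18 the lowest for 21. Summed over the 35 genes, the lowest, median and highest levels were 5422, 6452 and 7608 CPM in female Gdf15-KO mice, against 6720, 7475 and 9637 CPM in female WT mice. They were 6665, 7766 and 8846 CPM in male Gdf15-KO mice, against 6434, 8778 and 9960 CPM in male WT mice. In females, 17 instead of 28 genes were lower at an unadjusted p under 0.05 without female WT mouse 2. The share over all genes was then 4.22% instead of 7.36%, and the median of the 35 genes stayed below 0. The 3 low mice were female Gdf15-KO mouse 18, male Gdf15-KO mouse 18 and male WT mouse 4. They had the highest mean T cell marker level of their groups (0.89, 0.89 and 0.41 on the centred log2 scale). Their B cell marker level was also the highest of their groups (0.47, 1.1 and 0.9). Their brown and beige marker level was the lowest (-1.4, -0.65 and -0.53). The adipocyte marker level was also the lowest of its group in female Gdf15-KO mouse 18 (-0.45) and male WT mouse 4 (0.0). In male Gdf15-KO mouse 18 (-0.06) it was not the lowest. The skeletal muscle marker level was likewise lowest in the first-named mice (-2.33 and -3.39) but not in male Gdf15-KO mouse 18 (0.62). In the sums over whole tissue, fewer cells of a type and less RNA per cell cannot be told apart.

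Markers of other cell types were set beside these values. The 10 markers of brown and beige adipocytes, of which Cox7a1 and Cox8b are themselves complex IV isoforms, summed to 44.9 to 100.2 CPM (median 74.7) in female Gdf15-KO mice, against 70.5 to 145 CPM (median 120.6) in female WT mice. In males they summed to 95.9 to 181 CPM (median 124) in Gdf15-KO mice, against 101 to 320.5 CPM (median 205) in WT mice. Their median difference was -0.46 in females, with 9 of 10 below 0, and -0.89 in males, with 10 of 10 below 0. Only Cidea, which promotes lipid droplet growth, was called lower in females (-1.18, SE 0.23, adjusted p = 0.0194), against 0.174% of all genes. The lowest value was that of Elovl3 (-2.09), which was not called. Ucp1, which defines these cells, was at 0 in at least 1 female Gdf15-KO mouse. With the mean level of these markers as a covariate, an alternative chosen after seeing the data, 33 of the 35 genes were still below 0 in females, with a median of -0.17, and 6 were lower at an unadjusted p under 0.05, against 4.1% of all genes. In males 18 of 35 were then below 0, with a median of 0.00 and 0 lower at an unadjusted p under 0.05, against 3.06% of all genes. The same alternative left Cycs at -0.30 in females and -0.16 in males.

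The 7 T cell markers had a median difference of 0.42 in females and 0.24 in males, with 7 of 7 above 0 in each sex and 0 called, and summed to 175 to 523 CPM in female Gdf15-KO mice, against 179 to 335 CPM in female WT mice. With their level as a covariate, also chosen after seeing the data, 20 genes were lower in females at an unadjusted p under 0.05, against 5.27% of all genes, with a median of -0.24. The 12 skeletal muscle markers varied most, from 39.1 CPM in a female WT mouse to 38049 CPM in a male WT mouse, with a median difference of -0.45 in females and -1.10 in males and 0 called. With the muscle level as a covariate the female median stayed at -0.30, with 27 genes lower at an unadjusted p under 0.05, against 7.98% of all genes. The 12 mammary and epithelial markers had a median difference of -0.30 in females and -1.79 in males, with 0 called. With this level, taken within each sex, as a covariate, 16 of the 35 genes were called averaged over the sexes, Cycs among them, against 2.6% of all genes. In males these markers summed to only 3.28 to 15.0 CPM. On the centred log2 scale male WT mice 3, 4 and 6 had -2.08, -2.18 and -2.54, against -4.37 to -3.6 in the other males. Female WT mouse 4 had 4.95, against 3.0 to 4.0 in the other females. Male WT mouse 4 was also the lowest of its group for all 35 genes, and its part in the 16 calls was not tested. The 12 adipocyte markers had a median difference of -0.11 in females and 0.03 in males, with 0 called, and the 6 erythrocyte markers one of -0.81 in females and -0.03 in males, with 0 called. The part of erythrocytes in the result was not tested. The lists of macrophage, B cell, endothelial, and fibroblast and preadipocyte markers had medians of -0.08 to 0.13 in females and 0.01 to 0.07 in males, with 0 called.

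Other genes of the same pathway were taken from lists. Of 36 nuclear complex I subunits, 36 were below 0 in females with a median of -0.31. At an unadjusted p under 0.05, 28 were lower, against 7.36% of all genes. In males their median was -0.19. Averaged over the sexes 36 were below 0 and 33 lower at an unadjusted p under 0.05, against 8.68% of all genes. Only Ndufa8 was called (-0.31, SE 0.07, adjusted p = 0.0377), against 0.38% of all genes called lower. Of 8 further ATP synthase subunits and its inhibitor, 7 were below 0 in females, with a median of -0.27 and 0 called, led by Atp5md (-0.44, adjusted p = 0.327) and Atp5j2 (-0.33, adjusted p = 0.332). Of 7 complex IV isoforms and associated subunits tested, 7 were below 0 in females, with a median of -0.34 and 0 called, with Ndufa4 at -0.40 (adjusted p = 0.296) and the muscle and brown fat form Cox8b at -0.48 (adjusted p = 0.548). Of 39 assembly factors tested, which build complexes II to V without being part of them, 39 were below 0 in females. Their median was -0.19, and 0 were called. At an unadjusted p under 0.05, 16 were lower, against 7.36% of all genes. Sdhaf4, which helps to assemble complex II, differed by -0.39 (adjusted p = 0.257) and Cox19, which acts in copper delivery to complex IV, by -0.35 (adjusted p = 0.302). Of 20 other mitochondrial proteins, 20 were below 0 in females with a median of -0.19. Averaged over the sexes 20 were below 0 and 15 lower at an unadjusted p under 0.05, against 8.68% of all genes. Only Timm23, a channel of the inner membrane import machinery, was called in that average (-0.29, SE 0.06, adjusted p = 0.0314). Of the 18 regulators of mitochondrial biogenesis, 8 were below 0 in females, with a median of 0.08, 13 were below 0 in males, with a median of -0.07, and 0 were called. Yy1, a transcription factor, differed by 0.10 (SE 0.05, adjusted p = 0.423) and Pprc1, a relative of the coactivator PGC-1alpha, by 0.22 (SE 0.11, adjusted p = 0.48) in females. In males Yy1 and Pprc1 differed by -0.06 and -0.10. Averaged over the sexes 8 of the 18 regulators were below 0, with a median of 0.01. At an unadjusted p under 0.05, 3 of them (16.7%) were lower in that average, against 8.68% of all genes.

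**Figure D4:**
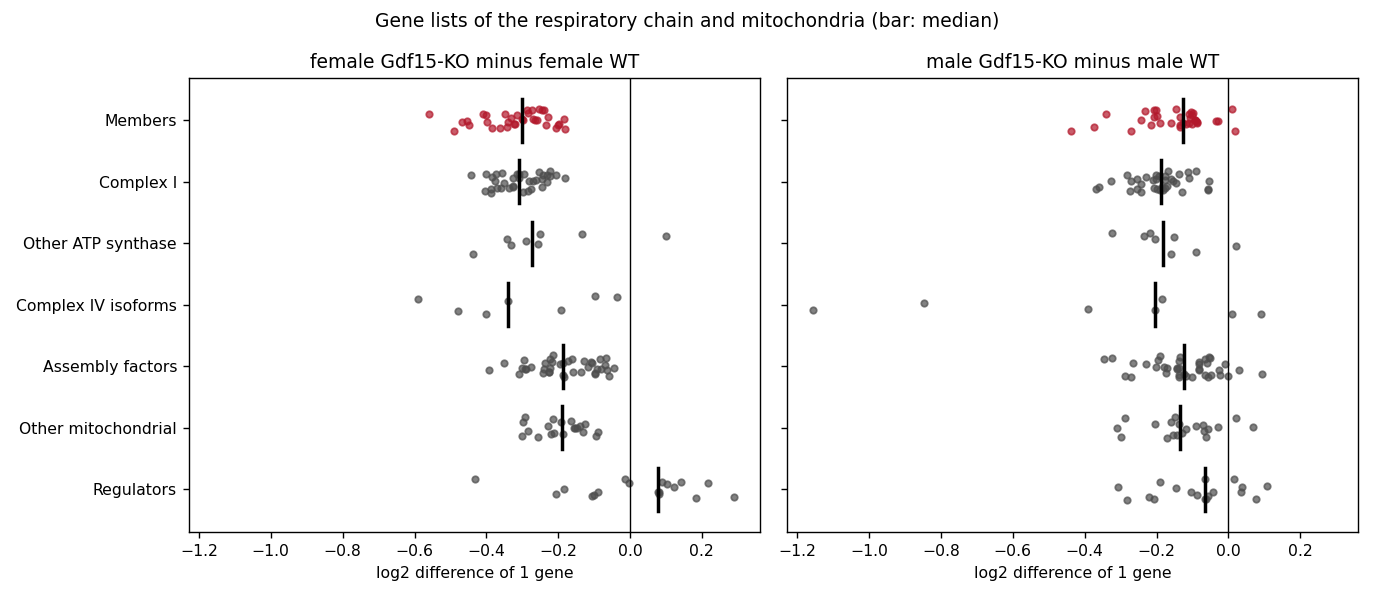
Log2 difference, Gdf15-KO minus WT, of each gene (points, with the list median as a bar) for the 35 genes (red) and for 6 other mitochondrial gene lists (grey), in females (left) and in males (right). The structural genes of the chain and its assembly factors lie almost wholly below 0 in females, with list medians from -0.34 to -0.19, whereas the 18 regulators spread around 0 with a median of 0.08.

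Between the sexes, with both genotypes averaged, 33 of the 35 genes were lower in females, against 52.8% of all genes, with a median of -0.18 (fold 0.882), and Uqcrh (0.07) and Atp5g1 (0.01) were above 0. edgeR called 15 lower, against 20.9% of all genes, and 0 higher, against 23.4%. At an unadjusted p under 0.05, 18 were lower, against 25.7%. The 15 that were lower in females were Sdhb and Sdhc of complex II, Uqcrc1, Uqcrq and Cyc1 of complex III, Cox5a, Cox5b, Cox6a1 and Cox8a of complex IV, and Atp5b, Atp5c1, Atp5o, Atp5pb, Atp5h and Atp5g3 of ATP synthase. Cycs was not among them (-0.22, SE 0.11, adjusted p = 0.118). Cox6a1 had 131 to 196 CPM in female Gdf15-KO and 163 to 267 CPM in female WT mice, against 173 to 266 CPM in male Gdf15-KO and 187 to 306 CPM in male WT mice, with overlapping ranges (-0.35, SE 0.10, adjusted p = 0.00465). Uqcrc1 had 163 to 229 CPM in female Gdf15-KO and 193 to 285 CPM in female WT mice, against 224 to 283 CPM in male Gdf15-KO and 209 to 372 CPM in male WT mice (-0.31, SE 0.09, adjusted p = 0.00526). The others fell between -0.32 (Uqcrq) and -0.18 (Atp5h), among them Sdhb (-0.26, adjusted p = 0.0192), Cyc1 (-0.29, adjusted p = 0.0206), Cox5a (-0.26, adjusted p = 0.0185), Atp5b (-0.26, adjusted p = 0.0188) and Atp5pb (-0.21, adjusted p = 0.0129). The medians of the complexes were -0.20 for complex II, -0.19 for complex III, -0.15 for complex IV and -0.18 for ATP synthase.

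Of the 12 adipocyte markers, 11 were also lower in females, with a median of -0.44. edgeR called 10 of them lower, against 20.9% of all genes. They summed to 19798 to 26409 CPM in female Gdf15-KO and 17736 to 28496 CPM in female WT mice, against 26137 to 40485 CPM in male Gdf15-KO and 26096 to 34799 CPM in male WT mice. With the adipocyte level as a covariate, chosen after seeing the data, 0 of the 35 genes were called (13.2% of all genes were still called lower). At an unadjusted p under 0.05, 0 were lower, against 19.7% of all genes, and the median turned to 0.05. The adipocyte level ran from -0.69 to 0.02 in females and from -0.09 to 0.55 in males on the centred log2 scale. It was not taken within each sex, so in this fit the adipocyte level and the sex of the mouse cannot be fully told apart. With the brown and beige level as a covariate, Uqcrc1 and Cox6a1 were called, against 20.4% of all genes. With the muscle level 15 were called, against 22% of all genes, and with the T cell level (chosen after seeing the data) 19, against 23.5%. The 12 mammary and epithelial markers were all higher in females, at 743 to 2041 CPM in females against 3.28 to 15.0 CPM in males, and 5 of them in male Gdf15-KO mice and 6 in male WT mice were at 0 in at least 1 mouse. The presence of mammary tissue and the sex of the mouse cannot be told apart here.

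**Figure D5:**
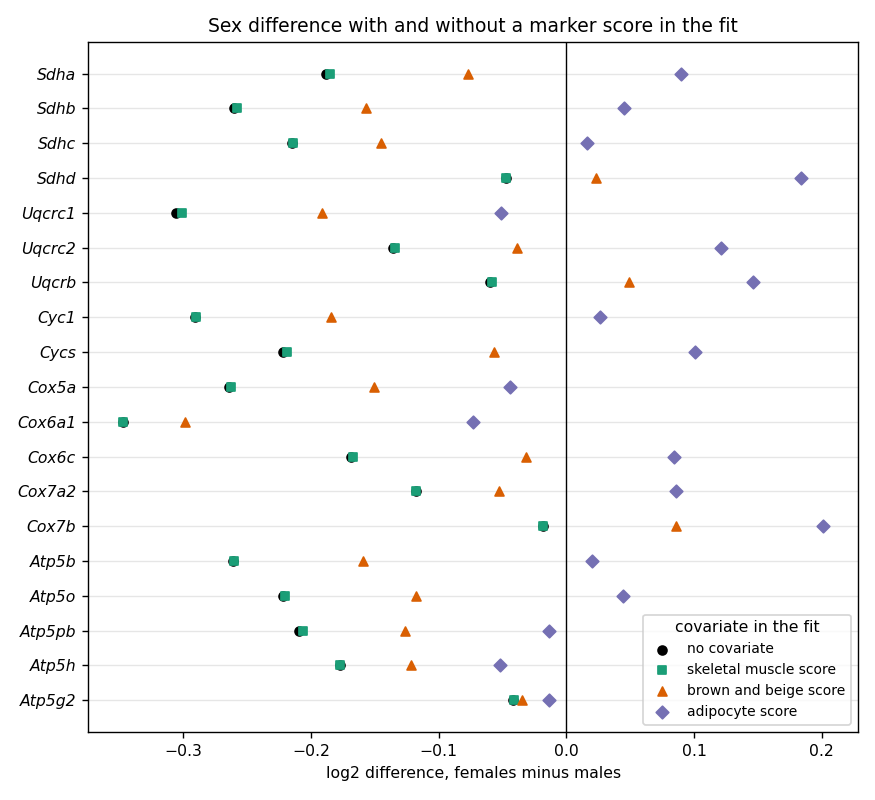
Female minus male log2 difference of 19 members without a covariate and with the skeletal muscle, brown and beige or adipocyte marker level as a covariate. The muscle level leaves the values in place, whereas with the adipocyte level 13 of the points lie above 0 that lay below it without a covariate.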

How the data were processed

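RNA-Seq of sWAT from 24 mice was used. The authors deposited RSEM expected counts per gene (unnormalized, 5.07% of values not whole). Bowtie2 2.2.5, RSEM 1.2.8 and GRCm39 are named in the submitters' processing notes. All 24 value columns belonged to a sample, and 0 columns had none. For 34 of the 35 genes every expected count was whole, and Cox5b had a value that was not whole in 1 sample.

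Counts were rounded and filtered with filterByExpr (minimum count 10, minimum total 15), which left 14982 of 19175 genes. After TMM scaling, edgeR 4.0.16 under R 4.3.3 fitted 1 mean per group to all mice by quasi-likelihood. A call needs an adjusted p (Benjamini-Hochberg over all genes tested) under 0.05. Log2 CPM used a prior count of 2. Gdf15-KO was set against WT in females, in males and averaged, followed by the difference of these effects and by females against males, 5 comparisons in all. The model takes the mice as independent. The labels do not say whether the mice of a group shared litters or cages. The procedure was tested on simulated data. Depth was 22521358 to 24500575 counts per mouse.

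The genes and gene lists were chosen with earlier results of these data known. Named with values were Gdf15, Cycs, members called in a Gdf15-KO comparison, per complex the 2 genes of smallest p in females, in males and between the sexes, and per other list the called genes or the 2 of smallest p in females. Other members were named only as the ends of a range, to account for all of them, or with a promoter. Levels of different genes were not compared as amounts, because the transcript lengths behind the expected counts are not given in the sources used here. Shares of summed CPM were not scaled for length and were compared only between groups. Gene positions came from GENCODE mouse release 39 and promoters from RefSeq (GRCm38.p6, sequences only).

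Alternatives were DESeq2 size factors or upper quartile factors, no filter or 10 counts in every sample, limma-voom (limma 3.58.1), DESeq2 1.42.0, each sex alone, marker levels as covariates (skeletal muscle and mammary planned, brown and beige, adipocyte and T cell chosen after seeing the data), the 30 genes matched by symbol, a replicate block and leaving out each mouse. Skeletal muscle markers and the other marker levels are means of centred log2 CPM. Mitochondrially encoded subunits were not analysed here, nor were reads, qPCR or histology.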

Additional observations from a re-analysis of the deposited data

How the results depend on the processing

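The direction of the median Gdf15-KO difference over the 35 genes held under the alternatives run, apart from the male median with the brown and beige level as a covariate (0.00), and edgeR called 0 of the 35 genes in either sex under them. At an unadjusted p under 0.05 the counts were 28 in females, 3 in males, 31 averaged over the sexes and 1 for the difference between the sexes. The shares over all genes were 7.36%, 3.09%, 8.68% and 1.76% in the same order. In the average over the sexes, DESeq2 size factors gave 1 call (Cycs), against 0.407% of all genes called lower. So did a filter of 10 counts in every sample, against 0.405%. DESeq2 gave 1 in females (0.448% of all genes) and 6 in the average (1.38%) in one fit, and 8 in the females alone (1.01%). With the mammary level as a covariate 20 genes were lower in males at an unadjusted p under 0.05, against 6.16% of all genes. In the average 16 were called with it, against 2.6% of all genes called lower. In males the mammary markers summed to only 3.28 to 15.0 CPM.

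With the brown and beige level as a covariate 6 genes in females, 0 in males and 3 in the average were lower at an unadjusted p under 0.05. The shares over all genes were 4.1%, 3.06% and 4.49%. In males 18 of the 35 genes were below 0. Between the sexes this covariate left 2 called, against 20.4% of all genes called lower, and 2 lower at an unadjusted p under 0.05, against 24.9%. Among the 19 members named by rule, those that turned above 0 with it were Cox6c (0.011) in females, Sdhd (0.03), Uqcrc2 (0.033), Cyc1 (0.10), Atp5b (0.073) and Atp5o (0.047) in males, and Sdhd (0.023), Uqcrb (0.049) and Cox7b (0.086) between the sexes. With the adipocyte level as a covariate 10 genes were lower in males at an unadjusted p under 0.05, against 4.72% of all genes. In the average this covariate gave 2 calls (Uqcrb and Cycs), against 0.708% of all genes called lower. Between the sexes it left 0 called, 0 lower at an unadjusted p under 0.05 and 6 below 0, with medians of 0.054 over all 35 genes, 0.068 for complex II, 0.059 for complex III, 0.10 for Cycs, 0.085 for complex IV and 0.03 for ATP synthase. Among the same 19 members, female minus male values above 0 with it were those of Sdha (0.09), Sdhb (0.045), Sdhc (0.016), Sdhd (0.18), Uqcrc2 (0.12), Uqcrb (0.15), Cyc1 (0.026), Cycs (0.10), Cox6c (0.084), Cox7a2 (0.086), Cox7b (0.20), Atp5b (0.02) and Atp5o (0.044). With the T cell level 18 genes were lower in the average at an unadjusted p under 0.05, against 7.04% of all genes. With the 30 genes matched by symbol the difference between the sexes had 0, against 1.76%. The brown and beige, adipocyte and T cell levels and the 30 genes were chosen after seeing the data. The marker levels were measured in the same libraries, and the cause of these shifts was not tested.

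Leaving out 1 mouse at a time gave 17 to 32 genes lower in females at an unadjusted p under 0.05, against 4.22 to 8.1% of all genes (median difference -0.37 to -0.23). In males it gave 1 to 14, against 1.89 to 5.41% of all genes (median -0.20 to -0.08, with 31 to 35 below 0). In the average it gave 19 to 33, against 6.23 to 10.7%, with 0 to 10 called, against 0.286 to 1.79% called in either direction. For the difference between the sexes it gave 0 to 3, against 1.13 to 2.72%. Between the sexes 10 to 21 genes were called, against 41.9 to 45.9% of all genes called in either direction. At an unadjusted p under 0.05, 15 to 26 were lower, against 24 to 26.6%. Between the sexes Cox7b ran from -0.067 to 0.024, above 0 without female Gdf15-KO mouse 18, male Gdf15-KO mouse 13 or male WT mouse 5. In males Atp5g2 ran from -0.052 to 0.007, above 0 without male WT mouse 1.

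No paired analysis was possible because Gdf15-KO and WT mice share no replicate numbers. Females and males of a genotype do share them, but the pairing has no stated basis: the deviations of same-numbered mice correlated at -0.56 to 0.40, over 0.1 in 9 of 12 pairs, and 4 of 12 females correlated best with their own number. With the replicate block 16 of the 35 genes were called between the sexes instead of 15 (Sdha was added, at -0.19 and adjusted p = 0.0286 by edgeR), and 6684 instead of 6625 of all genes.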
